A study of Mus musculus with 10 samples.

Results

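The 10 genes described here are those by which microglia, the resident macrophages of the brain, are usually recognized: Cx3cr1, Csf1r, P2ry12, Siglech, Trem2, Tyrobp, C1qa, C1qb, C1qc and Aif1. They were chosen by name. Probes were named through their RefSeq accessions where these matched a gene, and 15 probes carried 1 of these 10 names. All 10 genes were found, among 18543 genes named on the array, and 6 of them had 1 probe, 3 had 2 probes and Csf1r had 3 probes.

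RNA of the left hemibrain of 10 male C57BL/6J mice was labeled with Cy-5 and hybridized together with a second RNA, labeled with Cy-3, on dual dye arrays, 1 array for each mouse. The mice arrived at 3 weeks of age, were housed singly, and ate a standard lab diet (SD) or a fish oil diet enriched in n-3 PUFA (FD) for about 20 weeks, to an age of 5 months. By the labels, the Cy-5 RNA of all 10 mice is FD and the Cy-3 RNA is pooled SD hemibrain, yet each sample is also described as a control, and the methods name arrays of both diets against a commercial reference RNA. The diet of each array was therefore not settled, the diets were not compared, and the arrays are named by animal (C10-413 to C10-437). The value given throughout is the log2 of the Cy-5 signal over the Cy-3 signal, so that 1 stands for a doubling of the hemibrain signal over that of the Cy-3 RNA. Since hemibrain RNA comes from every cell of the tissue, fewer microglia and less of an RNA in each microglial cell cannot be told apart.

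Microglia settle in the brain before birth and depend on signaling through Csf1r, the receptor of the growth factors Csf1 and Il34. Cx3cr1 is the receptor of Cx3cl1, a chemokine made by neurons, P2ry12 senses nucleotides that leak from injured cells, and Siglech is a lectin that, within the brain, marks microglia. Trem2 binds lipids and apolipoproteins and signals through the adaptor Tyrobp, which Siglech and other myeloid receptors use as well. C1qa, C1qb and C1qc encode the chains of C1q, which starts the classical complement pathway and in the brain tags synapses for removal, and Aif1 (Iba1) encodes the actin-binding protein used to stain microglia.

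Without control spots, each array held 41174 probes, of which 40060 had a value on every array, and no gene probe was saturated. On 9 arrays the share of probes with a signal well above background was 68.2% to 76.9% in Cy-5 and 70.3% to 79.1% in Cy-3, but on C10-434, the dimmest array, it was 49.8% and 61.9%. All 15 probes of the 10 genes gave a signal well above background in Cy-5 on at least 8 arrays, and 12 of them did so on all 10. The tissue label fits the neuron, astrocyte and oligodendrocyte genes, of which 28 of the 29 tested were higher in Cy-5. The list medians were 6.28, 5.46 and 5.03 on the log2 scale, values at odds with the label of the Cy-3 RNA as hemibrain, which is why it is called the Cy-3 RNA here.

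Of the 10 genes, 8 were higher in the hemibrain than in the Cy-3 RNA and 2 were lower (limma, Benjamini-Hochberg adjusted p under 0.05 over 40060 probes). Over all probes, 36.6% were called higher and 39.9% lower, so that a call in either direction is common on these arrays and its size is more informative than the call. The median log2 ratio of the 10 genes was 3.51, beside 0.03 over all probes, whose quartiles were -0.91 and 0.66. With P2ry12 and Siglech set against the dimmest Cy-3 signals well above background, as described below, the median of the genes was 2.69. The test sets the spread over the 10 mice against 0 and leaves out the spread of the Cy-3 RNA. Since hemibrain RNA was always in Cy-5, dye bias of a probe cannot be told apart from a difference between the RNAs.

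**Figure D1:**
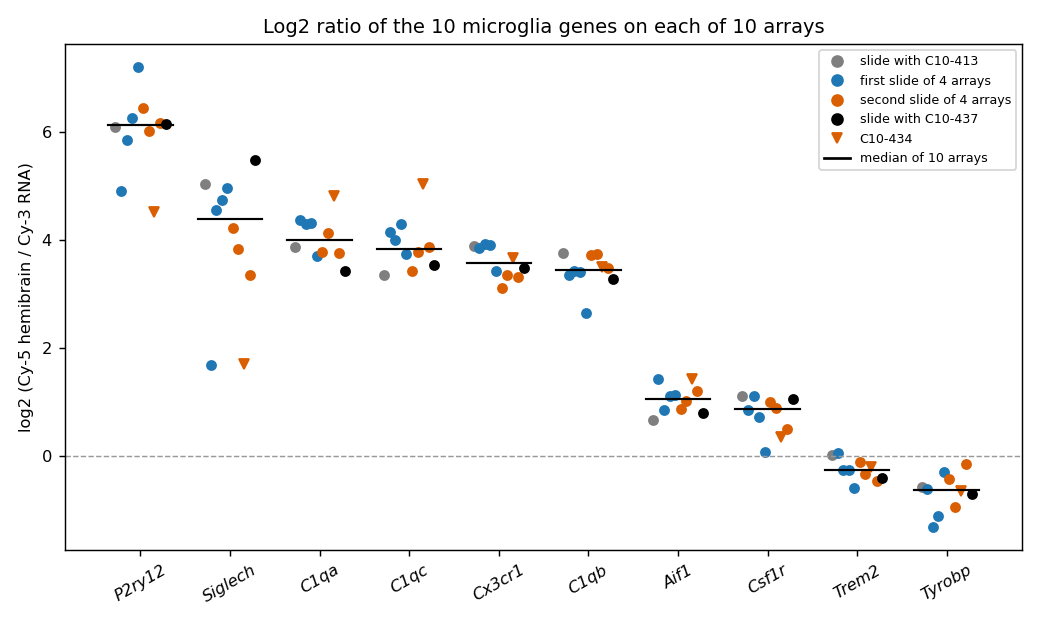
Log2 of the Cy-5 (hemibrain) over the Cy-3 signal (the other RNA) of each gene (x axis), 1 point per array, colored by slide, with a bar at the median of 10 arrays and a triangle for the dim array C10-434. Each gene is shown by its brightest probe with a value on every array. P2ry12, Siglech, C1qa, C1qc, Cx3cr1 and C1qb lie above Aif1 and Csf1r, Trem2 and Tyrobp lie near or below 0, and Siglech spans the widest range, from 1.69 to 5.48.

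P2ry12 was far higher in the hemibrain than in the Cy-3 RNA. Its probe (A_51_P338878) gave 4.53 on C10-434, a median of 6.12 and 7.20 on C10-423. All 10 arrays lay far above 0, with C10-434 and C10-415 (4.90) below the others. In Cy-5 its log2 signal ran from 8.55 to 11.06 and was well above background on all 10 arrays. In Cy-3 none of the 10 arrays gave such a signal, so that the ratio has no upper bound. Set against the dimmest Cy-3 signal well above background, P2ry12 was 25.7-fold higher in the hemibrain, a value that was not itself tested. The fit of its measured ratio against 0 gave an adjusted p of 3.06e-11 (limma). The 25.7-fold value (4.68 on the log2 scale) compares the mean Cy-5 signal with the lowest signal among probes well above background in Cy-3 on each array. For it the arrays were scaled to each other by the mean intensity of both dyes, and without swapped dyes it is open to dye bias. It is not a minimum, because a signal can miss the background limit and yet be higher. On C10-434, C1qa missed that limit in Cy-3 at 6.30, whereas the brighter probe of Cx3cr1 passed it at 6.16. With the background corrections that add an offset, the fitted log2 ratio was 1.91 (normexp) and 2.92 (subtraction with a floor), against 5.96 as reported, and without C10-434 it was 6.12.

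Siglech (A_51_P418800) was in Cy-3 not well above background on any array either, and in Cy-5 it was on 9, all but C10-434. Its log2 ratio was 1.69 on C10-415 and on C10-434, had a median of 4.39 and reached 5.48 on C10-437. These arrays form no even spread, because C10-415 and C10-434 stood well below the next array, C10-435 (3.35). On C10-415 the Cy-3 signal of this probe was the highest of the 10 arrays (4.74 on the log2 scale, against 2.76 to 4.13 on the others), and on C10-434 the Cy-5 signal was the lowest (5.82, against 6.42 to 8.44). By the same kind of comparison, also not tested and not a minimum, Siglech was 3.81-fold higher in the hemibrain (1.93 on the log2 scale). That comparison includes C10-434, where the Cy-5 signal was not well above background either. The fit of the measured ratio of Siglech against 0 gave a log2 ratio of 3.95 (SE 0.371, n = 10, limma, adjusted p = 5.16e-07). That fitted log2 ratio fell to 0.67 with normexp and 1.11 with the floor, and was 4.20 without C10-434.

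Cx3cr1 was measured by 2 probes that disagreed. The probe with the brighter signal (A_52_P99810), well above background in both dyes on all arrays, gave 3.11 on C10-424, a median of 3.57 and 3.92 on C10-416, a fitted log2 ratio of 3.59 (SE 0.0964, limma, adjusted p = 2.05e-12). The 10 arrays lay within 0.81 of each other, the narrowest range among the 6 genes with a median above 3. The second probe (A_51_P350853) ran from 0.18 on C10-434 through a median of 0.85 to 2.10 on C10-413, and passed the background limit in Cy-3 on 7 arrays and in Cy-5 on 9. It was lower than the first probe on 10 of 10 arrays, by 1.43 to 3.48 on the log2 scale. The sign was the same for both probes but the size was not, and the mean of both gave 2.27. With normexp the brighter probe gave 1.94.

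Csf1r, the receptor on which microglia depend, was only slightly higher in the hemibrain by its brightest probe. That probe (A_51_P365885) gave 0.07 on C10-423, a median of 0.87 and 1.10 on C10-416, a 1.82-fold difference at the median, with a fitted log2 ratio of 0.76 (SE 0.109, limma, adjusted p = 3.15e-05). C10-423, C10-434 (0.35) and C10-435 (0.50) were the lowest arrays. The probe of middle brightness (A_52_P602091) ran from -0.32 to 0.91 with a median of 0.43 and was above 0 on 7 of 10 arrays. The dimmest (A_52_P570471) ran from -1.75 to 0.09 with a median of -0.70 and was below 0 on 9 of 10 arrays, although it was not well above background in Cy-5 on C10-434 and C10-435. The probes of Csf1r thus went in both directions, and the mean of the 3 probes was 0.12, which was not called (limma, adjusted p = 0.343).

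Trem2 and its adaptor Tyrobp were the genes below 0. Tyrobp (A_51_P261517) gave -1.32 on C10-416, a median of -0.63 and -0.15 on C10-435, and was below 0 on 10 of 10 arrays. Its fitted log2 ratio was -0.68 (SE 0.111, limma, adjusted p = 9.98e-05), a signal 1.54-fold lower in the hemibrain at the median. C10-416 and C10-417 (-1.11) were the lowest arrays, and they lie on the same slide.

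Trem2 differed less. The probe with a value on every array (A_51_P269549) gave -0.59 on C10-423, a median of -0.27 and 0.06 on C10-415, and was below 0 on 8 of 10 arrays. The fitted log2 ratio was -0.26 (SE 0.077, limma, adjusted p = 0.00828). This call was lost with loess on top of the processed signals (-0.05, adjusted p = 0.537), with normexp (-0.06, adjusted p = 0.277) and with the floor (-0.02, adjusted p = 0.732). With loess all 10 genes moved up, by 0.14 to 0.24 on the log2 scale, while the median over all probes moved by 0.017. The Trem2 call was also lost within each slide of 4 arrays, where the values were -0.27 and -0.28 (adjusted p = 0.155 and 0.078). The brighter probe (A_51_P269546) carried an outlier flag on C10-413 and C10-425, and on the 8 other arrays it ran from -0.60 to -0.03, with a median of -0.37. Both probes of Trem2 and that of Tyrobp were well above background in both dyes on all 10 arrays, so these low ratios come from strong signals on either side.

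**Figure D2:**
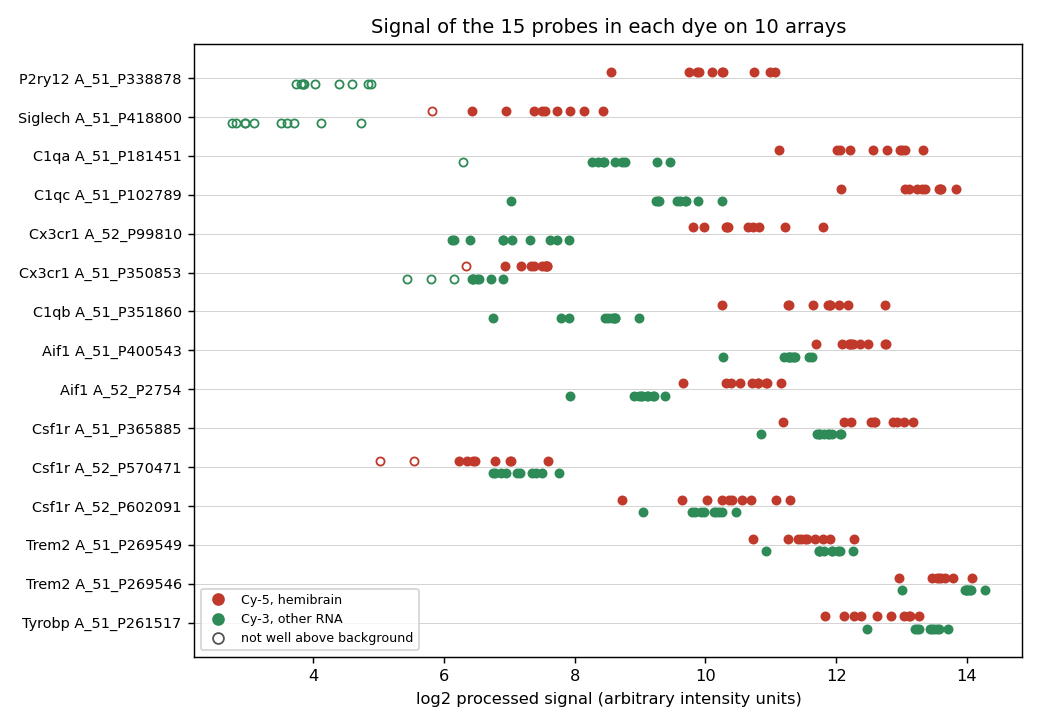
Log2 processed signal (x axis, arbitrary intensity units) of each of the 15 probes (rows) in Cy-5 and in Cy-3, 1 point per array, open where the signal was not well above background. In Cy-3 the points of P2ry12 and Siglech are all open, whereas those of Trem2, Tyrobp and Aif1 are all filled. Signals of different probes are not comparable, because probes bind with different strength.

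The chains of C1q were all far higher in the hemibrain, with ratios of similar size. C1qa (A_51_P181451) gave 3.43 on C10-437, a median of 4.00 and 4.82 on C10-434, and the fitted log2 ratio was 4.04 (SE 0.124, limma, adjusted p = 7.05e-12). C1qc (A_51_P102789) gave 3.34 on C10-413, a median of 3.82 and 5.04 on C10-434, with a fit of 3.92 (SE 0.146, adjusted p = 4.52e-11). C1qb (A_51_P351860) gave 2.65 on C10-423, a median of 3.45 and 3.76 on C10-413, with a fit of 3.43 (SE 0.103, adjusted p = 5.51e-12). At the median these are 16.0-fold, 14.1-fold and 10.9-fold higher signals in the hemibrain. With normexp the fitted log2 ratios were 2.89, 3.12 and 2.40. C10-434 was the highest array for C1qa and C1qc but not for C1qb, and there the signals of all these probes were the lowest of the 10 arrays in Cy-5 and in Cy-3 alike, with C1qa not well above background in Cy-3. Without C10-434 the highest values were 4.36 for C1qa and 4.30 for C1qc. C1qb stood apart on C10-423, where the next array was C10-437 at 3.28.

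Aif1 was higher in the hemibrain by both of its probes. The brighter (A_51_P400543) gave 0.67 on C10-413, a median of 1.06 and 1.42 on C10-415, a 2.08-fold difference at the median with a fitted log2 ratio of 1.04 (SE 0.0878, limma, adjusted p = 1.71e-07). The other (A_52_P2754) gave 1.19 on C10-416, a median of 1.64 and 1.94 on C10-415. It was above the first on 10 of 10 arrays, by 0.32 to 0.92. Both were well above background in both dyes throughout.

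In the order of their ratios, the genes fell into groups whose members overlapped. P2ry12 and Siglech have no upper bound and, set against the dimmest Cy-3 signals well above background, gave 4.68 and 1.93 on the log2 scale. Neither therefore has a settled place in this order, also against each other. Among the other 8 genes, C1qa was above C1qc on 6 arrays, C1qc above Cx3cr1 on 9 and Cx3cr1 above C1qb on 7, so these neighbors were not in a fixed order over the mice. C1qb was above Aif1 on 10 of 10 arrays, by 1.52 to 3.09. Aif1 was above Csf1r on 6 arrays, Csf1r above Trem2 on 10, by 0.55 to 1.47, and Trem2 above Tyrobp on 8. Each gene stands here by its brightest probe with a value on every array, and other probes give another order. By their medians, the second probe of Cx3cr1 (0.85) lay below Aif1 (1.06). The dimmest probe of Csf1r (-0.70) lay below Trem2 (-0.27), while its probe of middle brightness (0.43) lay above Trem2. This is an order of ratios to the Cy-3 RNA, not of expression in the hemibrain.

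Upstream sequences are shown for P2ry12, which had no Cy-3 signal well above background, for C1qb and C1qc, chains of the same protein, and for Trem2, whose ratio was near 0. They are the 200 bases before the annotated start (RefSeq, GRCm38.p6), written 5′ to 3′ on the strand of the gene, with capitals for matches to GAGGAA or GGAAGT on either strand. Both hold GGAA, the core sequence of the ETS family of transcription factors, to which Spi1 (PU.1) belongs. GGAA outside these longer sequences was not marked. Of the 10 genes, 7 matched the table of upstream sequences, without Csf1r, C1qa and Tyrobp.
P2ry12, chr3:59262986-59263185, minus strand: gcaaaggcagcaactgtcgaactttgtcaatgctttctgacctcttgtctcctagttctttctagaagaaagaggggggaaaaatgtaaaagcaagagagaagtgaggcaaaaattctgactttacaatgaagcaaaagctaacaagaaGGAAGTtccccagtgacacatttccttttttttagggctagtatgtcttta
C1qb, chr4:136886201-136886400, minus strand: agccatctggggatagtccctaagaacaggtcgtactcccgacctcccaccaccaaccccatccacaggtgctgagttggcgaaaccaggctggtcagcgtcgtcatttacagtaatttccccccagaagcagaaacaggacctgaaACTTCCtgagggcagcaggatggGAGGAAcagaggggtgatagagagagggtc
C1qc, chr4:136892915-136893114, minus strand: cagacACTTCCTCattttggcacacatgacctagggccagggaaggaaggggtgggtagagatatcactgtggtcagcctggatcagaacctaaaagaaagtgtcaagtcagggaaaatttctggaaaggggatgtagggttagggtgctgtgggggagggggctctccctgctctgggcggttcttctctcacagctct
Trem2, chr17:48346201-48346400, plus strand: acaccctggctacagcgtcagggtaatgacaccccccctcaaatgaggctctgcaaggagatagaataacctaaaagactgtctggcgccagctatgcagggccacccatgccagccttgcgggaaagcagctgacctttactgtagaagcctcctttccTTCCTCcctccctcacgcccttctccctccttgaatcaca
In the 250 bases before the start, GAGGAA or its reverse complement TTCCTC was found in 4 of the 7 genes (C1qb, C1qc, Trem2 and Aif1), beside 23.3% of all 32851 promoters of the table. GGAAGT or its reverse complement ACTTCC was found in 4 of the 7 (C1qb, C1qc, P2ry12 and Siglech), beside 19.7% of all promoters. In C1qc the matches overlap, from base -195 to base -188 before the start. Genes with high ratios (C1qb, C1qc) and with a ratio near 0 (Trem2) held GAGGAA alike, and Cx3cr1 held neither. With 7 genes these are descriptions of the windows and not sites of binding.

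Whether genes that act together also varied together over the mice was tested for 5 pairs with permutation tests (100000 resamples, two-sided) and adjustment over the 5 pairs. C1qa and C1qc varied together, with a Pearson r of 0.87 (permutation p = 0.00234, adjusted p = 0.0117, n = 10) and a Spearman rho of 0.76 (permutation p = 0.0143, adjusted p = 0.0715). Without C10-434 and C10-437, the arrays farthest from the median of C1qa, r was 0.74. Without C10-434 alone, the dim array that was highest for both genes, r was 0.75 and the adjusted permutation p was 0.124. With the floor r was 0.62 (adjusted permutation p = 0.276), whereas with loess it was 0.89 (adjusted permutation p = 0.0052), with centering 0.85 (adjusted permutation p = 0.0101) and with normexp 0.96 (adjusted permutation p = 0.0037). The call was thus lost without C10-434 and with the floor, and held with these 3 settings.

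The other pairs were not called with the values as reported. With normexp, C1qa with C1qb gave an r of 0.93 (adjusted permutation p = 0.00385) and C1qb with C1qc an r of 0.85 (adjusted permutation p = 0.0345), which were called, but without the arrays farthest from the median of the first gene r was 0.61 and 0.10. C1qa with C1qb gave a Pearson r of 0.21 (permutation p = 0.578) and a Spearman rho of 0.24 (permutation p = 0.515), and C1qb with C1qc an r of -0.09 (permutation p = 0.693) and a rho of -0.25 (permutation p = 0.488). Trem2 and its adaptor Tyrobp gave an r of -0.17 (permutation p = 0.640) and a rho of -0.14 (permutation p = 0.710). Csf1r and Cx3cr1 gave an r of 0.23 (permutation p = 0.506) and a rho of 0.33 (permutation p = 0.352). Without the arrays farthest from the median of the first gene, r was 0.16, -0.21, -0.03 and 0.24 for these 4 pairs. The adjusted permutation p of r was 0.693 for each of them, and that of rho lay between 0.644 and 0.710. A slide holds at most 4 arrays, too few to test, and the values of r within the first and second slide of 4 arrays are descriptions. They were 0.87 and 0.93 for C1qa with C1qc, 0.98 and -0.32 for C1qa with C1qb, and 0.85 and -0.65 for C1qb with C1qc. They were -0.26 and -0.28 for Trem2 with Tyrobp, and 0.93 and -0.82 for Csf1r with Cx3cr1. For 3 of the 5 pairs the slides thus gave opposite signs, and for the other 2 the same sign.

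**Figure D3:**
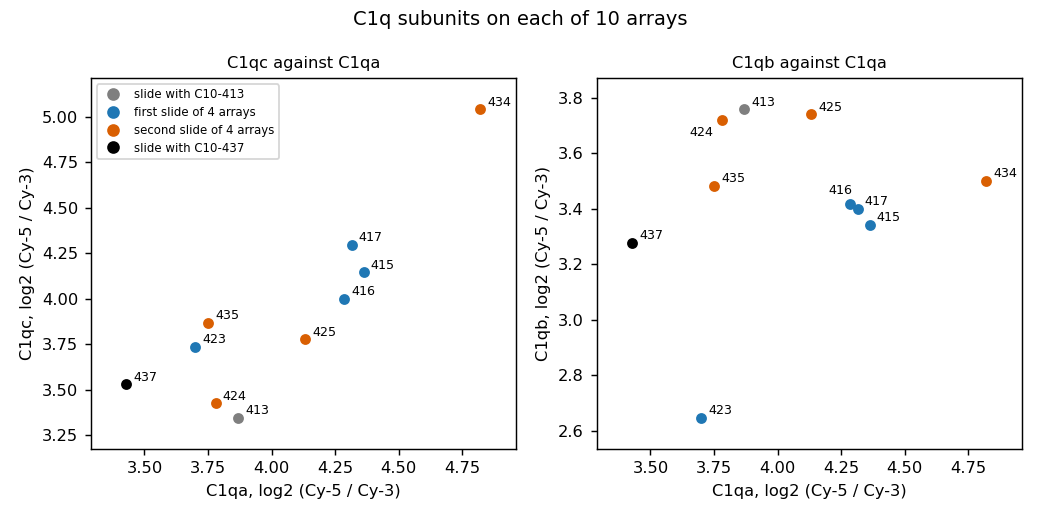
Log2 ratio (Cy-5 over Cy-3) of C1qc (left) and of C1qb (right) against that of C1qa, 1 point per array with the number of the animal, colored by slide. C1qc follows C1qa up to C10-434 in the upper right corner (Pearson r = 0.87 over 10 arrays), whereas C1qb does not (r = 0.21) and C10-423 lies lowest for C1qb.

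As a description with no test, the genes closest to the 10 microglia genes over the arrays were sought. Each of the 10 genes was set to 0 at its own median, and the mean of the 10 was taken per array. Among 10850 other genes well above background in both dyes on all arrays, the highest correlations with this mean were those of Mtap (r = 0.91), Prdx3 (0.90), Cyrib (0.89), Gab1 (0.89) and Wnk1 (0.88), over 10 arrays that share dyes and Cy-3 RNA. With 10 arrays and so many genes, high values of r can arise by chance, and the r to expect by chance was not computed. The mean mostly followed Siglech (r = 0.88) and P2ry12 (0.65), which varied most, while Aif1 (-0.78) and C1qc (-0.50) ran against it. It ran from -0.24 on C10-415 and -0.22 on C10-434 to 0.10 on C10-417. The 10 genes therefore had no common high or low array. By the median of the centered genes, which single genes move less, the arrays lay between -0.12 and 0.15.

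The slides are the only batch named in the files. The 4 arrays of a first slide (C10-415, C10-416, C10-417 and C10-423) were set against the 4 of a second (C10-424, C10-425, C10-434 and C10-435), which hold different mice of unsettled diet, so slide and animal cannot be told apart. Of the 10 genes, 0 were called (limma, adjusted p from 0.509 to 0.999) and 0 had an unadjusted p under 0.05, beside 0.0744% of 40299 probes called and 10.01% with an unadjusted p under 0.05. The differences, second slide less first, lay between -0.71 (SE 0.780) for Siglech and 0.41 (SE 0.208) for C1qb. Of the 10 genes, only C1qb had slides that did not overlap, at 2.65 to 3.42 on the first slide and 3.48 to 3.74 on the second, beside 5.65% of all probes without overlap. Cx3cr1 differed by -0.42 (SE 0.188), from a mean of 3.77 on the first slide to 3.35 on the second, with an adjusted p of 0.509 (limma). The count of genes higher in the hemibrain was 8 within each slide as well, a count not set against the share of all probes called there.

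The ligands and signaling partners of these receptors lay on both sides of 0. Of 12 genes, 11 were tested, 3 were higher and 7 lower in the hemibrain, and the list median was -1.06. The highest was Apoe, a lipid carrier and ligand of Trem2, at 5.12 to 6.53 with a median of 5.76 (limma, adjusted p = 2.54e-13). The lowest was Ptpn6, a phosphatase that dampens signaling of myeloid receptors, at -3.74 to -3.23 with a median of -3.56 (adjusted p = 2.37e-13).

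Among 14 other homeostatic microglia genes, 9 were higher and 4 lower, with a list median of 1.22. Fcrls, an Fc receptor-like gene used to mark microglia, ran from 2.97 to 3.74 with a median of 3.27 (limma, adjusted p = 2.26e-12). Entpd1, an ectonucleotidase that breaks down the nucleotides P2ry12 responds to, ran from -2.72 to -2.07 with a median of -2.31 (adjusted p = 6.56e-12). Homeostatic genes were thus spread on both sides of 0, like the 10 genes.

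Genes that microglia share with macrophages elsewhere were mostly lower in the hemibrain. Of 14 pan-myeloid and phagocyte genes tested, 3 were higher and 10 lower, with a list median of -2.29. Itgam (CD11b), an integrin of myeloid cells, was highest at 1.58 to 2.55 (median 2.24, limma, adjusted p = 3.68e-10), and Ptprc (CD45), a phosphatase of all white blood cells, was lowest at -6.43 to -5.16 (median -5.89, adjusted p = 1.77e-13). At the median, the Ptprc signal was 59.4-fold lower in the hemibrain than in the Cy-3 RNA. Of the 14 disease-associated microglia genes, 2 were higher and 12 lower, with a list median of -2.60. Ccl6, a chemokine, had a median of 1.47 (0.40 to 1.90, limma, adjusted p = 1.48e-06), and Lgals3, a lectin of activated macrophages, one of -6.09 (-6.46 to -5.61, adjusted p = 3.00e-14).

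Of the 9 myeloid transcription factors, 3 were higher and 5 lower, with a list median of -0.35. Mef2c, which neurons express as well, was highest, with a median of 3.60 (3.23 to 4.21, limma, adjusted p = 2.03e-12), and Ikzf1 was lowest, with a median of -2.88 (-3.63 to -2.47, adjusted p = 4.63e-11).

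Beyond the C1q chains, most genes of the complement pathway were lower in the hemibrain. Of 14 genes tested, 3 were higher and 9 lower, and the list median was -0.61, beside medians of 3.45 to 4.00 for the C1q chains. Serping1, the inhibitor of the C1 proteases, was highest, at 1.71 to 3.58 with a median of 3.23 (limma, adjusted p = 1.29e-09). C3, the component on which the pathways converge, was lowest, at -5.87 to -4.93 with a median of -5.41 (adjusted p = 3.86e-14), a signal 42.6-fold lower in the hemibrain.

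**Figure D4:**
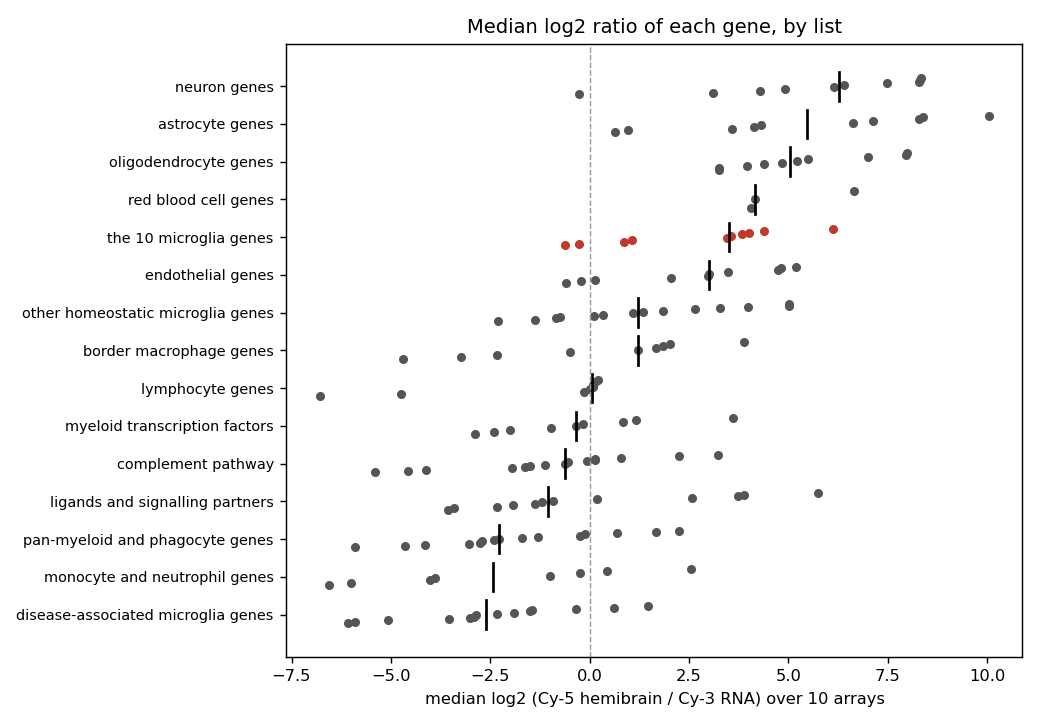
Median over 10 arrays of the log2 hemibrain (Cy-5) to Cy-3 ratio (x axis), 1 point per gene, in rows by list, with a vertical bar at the list median. The 10 microglia genes (red, median 3.51) lie below the neuron (6.28), astrocyte (5.46) and oligodendrocyte (5.03) lists and above the pan-myeloid (-2.29) and disease-associated (-2.60) lists.

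Other cells of the hemibrain could hold some of these RNAs, and their marker lists were read beside the 10 genes. Of 9 border macrophage genes, 5 were higher and 4 lower, with a list median of 1.21 that ran from -0.60 on C10-434 to 1.59 on C10-415. The list median on C10-434 was the value of Folr2 and that on C10-415 the value of Stab1. Among the genes well above background in both dyes on at least 8 arrays, Stab1 was highest (median 1.21) and Pf4 lowest (-4.70). Cd163 (named after its values were seen), well above background in Cy-3 on 1 array, had a median of 3.88. Of 8 monocyte and neutrophil genes, 2 were called higher, of which Ccr2 (named after its values were seen) had no signal well above background in either dye on any array, and 5 lower, with a list median between -2.73 and -1.64 over the arrays, and 2 of the 8 passed the background limit in Cy-5 on 0 arrays. In this list Ly6c2 had a median of -0.99 and Chil3 one of -4.02. All 3 red blood cell genes found were higher (list median 4.15, from 3.89 to 4.71, with Hbb-bt at 6.65 and Hba-a1 at 4.05). Of 8 lymphocyte genes 0 were higher and 2 lower (list median 0.06, from -0.29 to 0.17, with Cd79a at 0.22 and Cd3e at -0.15, neither of them called). The part of these cells in the ratios of the 10 genes was not tested.

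Among the brain's own cells, 8 of 9 neuron genes tested were higher, led by Nefl (8.34), with Syn1 lowest (-0.27). All 10 astrocyte genes were higher, from Gja1 (0.63) to Slc1a2 (10.05), as were all 10 oligodendrocyte genes, among them Mobp (3.26). Of 10 endothelial genes, 7 were higher and 1 was lower, from Slc2a1 (-0.59) to Cldn5 (5.18). No tested gene of these lists was called between the slides.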

How the data were processed

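The authors hybridized hemibrain RNA (Cy-5) and a second RNA (Cy-3) to Agilent whole mouse genome arrays and extracted the spots with Feature Extraction (version 10.10.1.1 per the file headers). The deposited processed signals are intensities on a linear scale, background-subtracted and dye-normalized (linear and LOWESS) by that software. The log ratio deposited for a spot is on a log10 scale, with Cy-5 as the numerator. A value table that the authors deposited holds log2 ratios without a stated scale or direction. Set against the scanner files, 98.8% to 99.95% of its values lay within 0.001 of the log2 ratio of Cy-5 over Cy-3 on each array, with column medians from -0.05 to 0.10. The deposited flags for background, saturation and outliers were used as they were.

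The log2 ratio of the processed signals was taken without further normalization, control spots and outlier-flagged spots were left out, and the spots of a probe were averaged. A probe counted as well above background where at least 0.5 of its spots did. Of 41174 probes, 27203 (66.1%) were named, 27198 by RefSeq accession and 5 by symbol, through a RefSeq table of GRCm38.p6 used for names alone. Probe sequences and coordinates were not used here. A gene was represented by its brightest probe with a value on every array. The 10 genes, the lists and the tests were chosen with earlier results of these data known. Besides the 10 genes, the rule named, in each list, the genes of highest and lowest median among those well above background in both dyes on at least 8 arrays, any list gene called between the slides, and the 5 genes closest to the mean of the 10. Not every gene named by this rule is reported here.

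Tests used limma 3.58.1 in R 4.3.3 (lmFit and eBayes) on 40060 probes, or 40299 for the slides, with Benjamini-Hochberg adjustment at 0.05. The fits were tested on simulated data. Correlations used permutation tests (scipy 1.17.1, Python 3.11.15). Each array is a different mouse per the labels. Precision is limited by how many arrays there are and, for dim probes, by the background. Array pairs correlated at 0.87 to 0.97 across probes, and 0 pairs were identical.

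The alternatives were loess (span 0.3) on top of the processed signals, centering on the median, normexp on median signals with an offset of 50, background subtraction with a floor of 0.5 and an offset of 50, the value table, a filter on dim probes, the mean of all probes of a gene, a change of at least 1.5-fold, the slide as a random block and leaving out each array. Keeping outlier-flagged probes and fitting each slide of 4 arrays were added after the data were examined.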

Additional observations from a re-analysis of the deposited data

Results flagged for a closer look

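A gap test (Dixon's, 95% level, 10 arrays) was applied to 25 measures, the ratio of each of the 10 genes and the medians of the lists. In 3 of them, the gap between an array at the end and its neighbor passed the limit, where chance sets apart about 1 in 20, or 1.25 of 25.

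C1qb stood at 2.65 on C10-423, with the nearest array at 3.28 and the highest at 3.76, a gap of 0.57 of the whole range. The median of the border macrophage genes was -0.60 on the dim array C10-434, with the nearest array at 0.85 and the highest at 1.59, a gap of 0.66 of the range. On C10-434 that median was the value of Folr2, while 0.85 and 1.59 were values of Stab1. The gap thus lies between different genes. With each gene set to 0 at its own median, the list median on C10-434 was -0.43, the lowest of the arrays. The median of the neuron genes was 7.53 on the same array, with the nearest at 6.69 and the lowest at 5.81, a gap of 0.49 of the range. Their cause was not tested.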

How the results depend on the processing

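Over the settings run, the count of genes higher in the hemibrain stayed at 8 of 10, except for 7 with the mean of all probes and 5 of the 7 genes left by the filter on dim probes. The median of the 10 genes, 3.51, became 1.60 with normexp, 1.96 with the floor, 1.06 with the filter and 2.87 with the mean of all probes, and lay between 3.45 and 3.57 when each array was left out. The number of probes called against the Cy-3 RNA, 30667, became 15460 with the filter, which tested 17612 probes, and 29357 to 30817 without each array. Between the slides, 30 probes were called, 0 with normexp (1081 at an unadjusted p under 0.05, limma), 0 with the floor (2998) and 0 to 18 when 1 array was left out. For the 10 genes that count was 0 throughout. The correlation of C1qb with C1qc turned from -0.09 to 0.85 with normexp and that of C1qa with C1qb rose from 0.21 to 0.93, both then called (adjusted permutation p = 0.0345 and 0.00385), while that of C1qa with C1qc, 0.87, became 0.62 with the floor and 0.75 without C10-434, where its call was lost, and 0.96 with normexp. With normexp, r without the 2 farthest arrays was 0.10 for C1qb with C1qc and 0.61 for C1qa with C1qb. The causes were not tested. No paired analysis was possible because all arrays form a single group with no shared replicate numbers. Ratios of probes near background in Cy-3 (P2ry12, Siglech, the second probe of Cx3cr1) are limited by that signal, and the Cy-3 RNA itself has no spread in these fits.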

Other observations

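The following genes of the lists were chosen after their values were seen, and their values are descriptions. Csf1 and Il34, the ligands that share Csf1r, lay on opposite sides of 0, at -2.57 to -2.13 (median -2.34) and at 2.03 to 2.93 (median 2.58), both well above background in both dyes on all 10 arrays. Cx3cl1, the ligand of Cx3cr1, had a median of 3.88 (3.47 to 4.29). C1ra and C1s1, the proteases that join C1q in the C1 complex, had medians of -4.56 (-4.86 to -3.94) and -4.11 (-4.51 to -3.93), whereas each chain of C1q lay above 2 on every array.

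P2ry13, a nucleotide receptor related to P2ry12, had a median of 5.01 (3.37 to 5.74) and, like P2ry12, a Cy-3 signal well above background on none of the 10 arrays. Gpr34 had a median of 4.00 (1.36 to 4.98) with such a signal on 2 arrays. Tmem119, a marker of microglia among brain macrophages, had a median of 0.12 (-0.29 to 0.41) with strong signals in both dyes. S100a9, a neutrophil gene, ran from -0.35 to 5.86 over the arrays, the widest range of any gene in the lists, and passed the background limit in Cy-3 on 5 of them.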
